A study of Mus musculus with 31 samples.

Results

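The 55 genes described here encode proteins of the cytoplasmic ribosome, the particle that translates messenger RNA. They were chosen by name: every gene on an autosome other than chromosome 17 whose symbol is Rpl or Rps followed by a number, or Rplp followed by a number, with the ribosomal S6 kinase genes left out. Of these, 34 encode large subunit proteins, 18 encode small subunit proteins and 3 encode the stalk proteins Rplp0, Rplp1 and Rplp2. They lie on 16 chromosomes, and 10 of them are on chromosome 7. The same kind of symbol is carried by 7 further genes on chromosome 17 or X that the rule leaves out: Rpl10a, Rpl7l1, Rps10, Rps18, Rpl10, Rpl36a and Rps4x.

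The samples were F1 mice and cells bred from 2 strains, C57BL/6J, called B6 here, and JF1. BJ1 hybrids had a B6 mother, and JB6 hybrids a JF1 mother. Embryonic stem cells (ESC) of each cross came from hybrid blastocysts and carried an Oct4-GFP transgene from the B6 parent. They were differentiated toward cortex with cyclopamine, a Hedgehog pathway inhibitor, in the medium from day 2 to day 10, and were sampled as ESC, at day 12 (d12) and at day 21 (d21). Cortical tissue was taken at E13.5, where the labels write DT, and at P0, where they write Ctx. There were 2 libraries per cross at each of the 3 culture stages, 3 per cross at E13.5, and 4 BJ1 and 3 JB6 libraries at P0, which makes 25. All 12 culture libraries were male, and 11 of the 13 tissue libraries were female, the exceptions being E13.5 BJ1 replicate 1 and P0 BJ1 replicate 2. Culture and tissue therefore differed in sex as well, apart from those 2. The labels do not say whether replicates were separate animals or cultures, so p-values measure the spread between these libraries, which may be technical.

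The values count read bases: each time a sequenced read covers a base that differs between the strains, 1 is added to the allele it shows. A read that spans several differences is counted at each, so read bases are not independent molecules. A gene's count rises with the number of strain differences its RNA carries as well as with its RNA level. The libraries held 5192382 to 8618253 read bases. Levels are given as CPM, the read bases of a gene over the library's total after scaling by edgeR's TMM factors, and are compared within a gene. Marker lists followed the labels in part. The summed level of 9 pluripotency markers was 3442 to 7333 in ESC and 0.865 to 5.44 in tissue. That of 12 cortical neuron markers was 10706 to 11368 at P0, 1519 to 2633 at E13.5 and 1399 to 1858 at d21. At d12 the neuron markers were at 183 to 603, which overlapped the 423 to 648 of ESC. The 9 measured dorsal telencephalic progenitor markers summed to 33.3 to 57.9 in ESC and 162 to 373 at d12. They reached 272 to 326 at d21, 1113 to 1312 at E13.5 and 737 to 990 at P0. In culture, the 10 measured markers of mesendoderm and other lineages, led by Krt8 and Krt18, summed to 2016 to 3704 at d12 and 2580 to 3443 at d21, against 2.99 to 31.4 at E13.5.

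Each ribosome holds 1 copy of most of these proteins, so cells make them in matched amounts. Their messenger RNAs are known for a 5′ terminal oligopyrimidine (TOP) tract, a C at the first transcribed base followed by a run of C and T, through which the mTOR kinase controls their translation. Growing and dividing cells devote a large part of their messenger RNA to ribosomal proteins, and neurons less.

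Windows around the annotated starts show where the tract lies in members that are described below. The windows are from RefSeq on GRCm38.p6, run from 25 bases before the start to 15 bases from it, and are written 5′ to 3′ on the transcribed strand; the deposited tables were made on mm9, and no coordinate was carried between builds. Capitals mark a C followed by at least 4 C or T where that run opens at the annotated start or within 5 bases after it, and runs elsewhere in a window stay in lower case.
Rpl15, chr14:18270972-18271011, minus strand: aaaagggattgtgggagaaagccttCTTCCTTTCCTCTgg
Rps6, chr4:86857353-86857392, minus strand: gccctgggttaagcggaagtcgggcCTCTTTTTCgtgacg
Rpl28, chr7:4792940-4792979, plus strand: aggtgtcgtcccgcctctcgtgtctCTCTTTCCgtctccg
Rpl14, chr9:120571492-120571531, plus strand: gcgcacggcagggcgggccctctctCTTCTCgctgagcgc
Rpl22l1, chr3:28805483-28805522, plus strand: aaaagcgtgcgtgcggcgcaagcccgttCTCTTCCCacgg
Rps27l, chr9:66946061-66946100, plus strand: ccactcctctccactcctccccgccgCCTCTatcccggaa
Rpl4, chr9:64173362-64173401, plus strand: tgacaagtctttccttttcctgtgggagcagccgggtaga
In Rpl15, Rps6, Rpl28 and Rpl14 the capitals begin at the annotated first base, although C or T also stand directly before it in these windows. The run opens in Rps27l 1 base after the first of its annotated starts and in Rpl22l1 3 bases after it. In the Rpl4 window no such run opens within 5 bases of the start. Only the transcribed strand was searched. Of 42 members with a window, 8 had the run at the first base (19.05%), against 813 of 27025 genes (3.01%). Within 5 bases of the start it was found in 20 of 42 members (47.6%) and in 21.2% of all genes. A match is a match of letters to an annotated start, which may differ from the start used in these cells.

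Of the 55 members, 52 were listed at all 5 stages and 48 had at least 20 read bases on average at every stage. The members covered few strain differences, with a median of 3 per member. In 10 members every library covered exactly 1: Rps16, Rpl15, Rpl35a, Rpl12, Rpl8, Rpl30, Rpl28, Rplp1, Rps23 and Rpl41. Levels were divided by the covered differences, which is as near as these tables come to a level per length, and averaged over the libraries and stages in which a member had a covered difference. A few members had none at 1 or more stages, so their means leave those stages out. This mean had a median of 323 CPM over the 55 members and was highest, at 1150, for Rps14. Rps14 is a protein of the small subunit's platform, and on this per-difference scale Rps16 (1049) and Rpl23a (1001), which lies near the exit of the peptide tunnel, came next. By this mean, 37 members were at 100 or more, 11 were under 20, and 7 lay between. Among the 11 were Rps3 (2.55) and Rps15a (1.48). The tables do not say whether a covered difference lies in an exon, an intron or a UTR, and they do not say how reads that fit several places were handled. Ribosomal protein genes have many processed pseudogene copies of near-identical sequence, so the levels and allele shares below are uncertain to the extent that reads were exchanged with them, which was not tested.

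The members' RNA took its highest mean share at d12 and its lowest in newborn cortex. The members' share of all read bases was 10.1% ± 1.63 (SD, n = 4) at d12 and 7.13% ± 1.94 (SD, n = 4) in ESC. It was 5.08% ± 0.789 (SD, n = 4) at d21, 3.92% ± 0.407 (SD, n = 6) at E13.5 and 2.03% ± 0.114 (SD, n = 7) at P0. By library, the share was 6.41% and 6.56% in ESC BJ1, 9.98% and 5.58% in ESC JB6, 10.4% and 9.67% in d12 BJ1, 8.14% and 12.1% in d12 JB6, 6.13% and 5.20% in d21 BJ1, and 4.36% and 4.61% in d21 JB6. The ranges of d12, d21 and P0 did not overlap. ESC overlapped d12 through 1 library, JB6 replicate 1, which was the highest ESC library for 46 of the 48 members. It also overlapped d21, since ESC JB6 replicate 2 (5.58%) was below d21 BJ1 replicate 1 (6.13%). At E13.5 the lowest, median and highest shares were 3.51%, 3.76% and 4.59%, and at P0 they were 1.86%, 2.01% and 2.20%. The E13.5 and P0 ranges were separate, and the highest E13.5 library lay above the lowest d21 library.

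**Figure D1:**
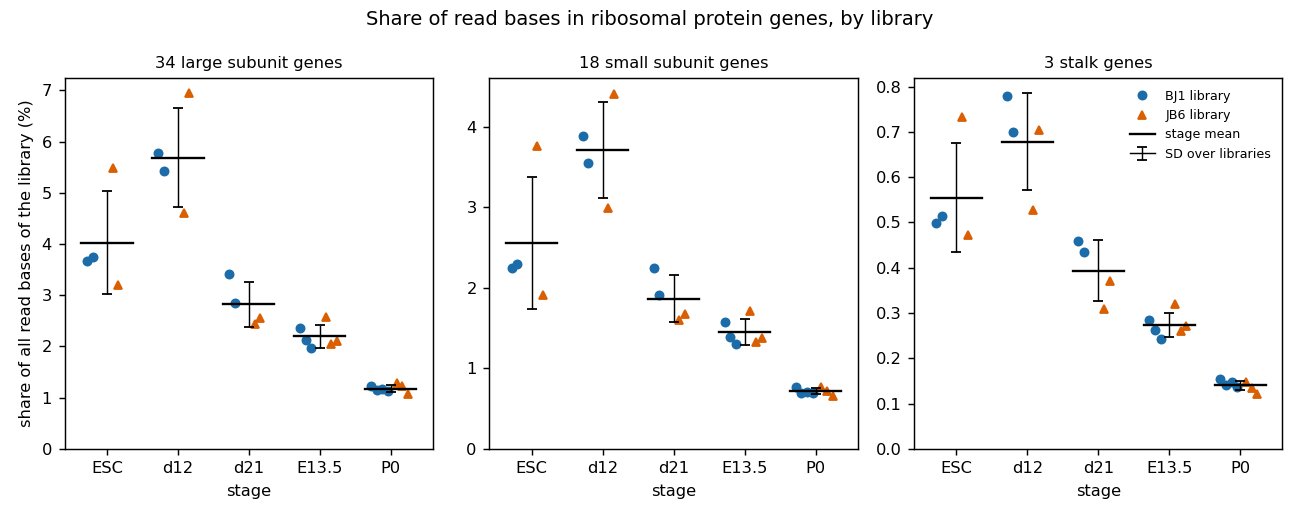
Share of all read bases (%, linear axis from 0) in the 34 large subunit, 18 small subunit and 3 stalk genes, with 1 point per library, circles for BJ1 and triangles for JB6, and bars for the stage mean and SD. In all panels the mean is highest at d12 and lowest at P0, and 1 JB6 library of ESC stands above the other 3.

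The small subunit genes' share divided by that of the large subunit genes was 0.628 ± 0.0387 (SD, n = 4) in ESC, 0.654 ± 0.0156 (SD, n = 4) at d12, 0.661 ± 0.00773 (SD, n = 4) at d21, 0.659 ± 0.00875 (SD, n = 6) at E13.5 and 0.608 ± 0.0113 (SD, n = 7) at P0. The ratio stayed between 0.590 and 0.685 in all 25 libraries. Among the 48 members, 31 had their highest mean level at d12, 15 in ESC, 1 at E13.5 and 1 at P0. P0 was lowest for 44 of them. The full order d12, ESC, d21, E13.5, P0 was followed by 27 members. Because these are bulk samples, fewer cells of a type and less RNA per cell cannot be told apart.

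From ESC to d12 most members were not called, and the rest went both ways. Of 50 tested by edgeR's quasi-likelihood test (Benjamini-Hochberg adjusted p of 0.05 over all genes tested), 15 rose, 7 fell and 28 did not pass. Of all 10484 genes, 37.5% rose and 40.1% fell. The members' median log2 fold change was 0.20, against -0.06 over all genes tested. Among the 48 members, the ranges of the libraries were separate for 4, 3 higher and 1 lower at d12. Rpl10l, which is not among the 48, also had separate ranges. The share of all genes with separate ranges was not worked out, for this or the later comparisons, so these counts have no background.

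Rpl22, an RNA-binding protein of the large subunit, rose most. Its level was 105, 94.0, 150 and 75.3 CPM in the 4 ESC libraries and 336, 325, 327 and 501.5 at d12. Every d12 library was above every ESC library, and the log2 fold change was 1.81 ± 0.16 (SE, edgeR adjusted p = 2.65e-10). Rps14 followed, with 1010, 1023, 1916 and 773 CPM in ESC and 3966, 2993, 2103 and 2850 at d12. Its ranges did not overlap either (log2 fold change 1.32 ± 0.22 SE, edgeR adjusted p = 7.54e-06). Rpl15, Rpl13 and Rpl13a, the last also known from interferon-induced translational silencing, rose by 0.89, 0.80 and 0.75 on the log2 scale.

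Rpl10l, a paralog of the X-linked Rpl10 that is known from male germ cells, was read in ESC and hardly elsewhere. It stood at 161, 159, 101 and 55.8 CPM in ESC. At d12 it was 0.792 and 0 in BJ1 and 0.605 and 0 in JB6, and all 4 d21 libraries and all 7 P0 libraries were at 0. The log2 fold change from ESC to d12 was -8.38 ± 0.47 (SE, edgeR adjusted p = 4.91e-11), on a total of 8 read bases at d12. Rpl39l, a paralog of Rpl39 known from testis, was found at 1.13 to 2.48 CPM in ESC, on 37 read bases, and 1 read base was its total elsewhere. Rpl4, whose extension lines the peptide exit tunnel, fell by 1.07 on the log2 scale. Its ESC values were 3514, 3363, 5081 and 2811 CPM and its d12 values 1301, 1291, 1509 and 3020. The highest d12 library, JB6 replicate 2, lay inside the ESC range. Rps15a, Rpl7 and Rps12 fell by 1.04, 0.76 and 0.59 on the log2 scale.

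The counts moved with single ESC libraries. Without ESC JB6 replicate 1, 31 members rose and the median was 0.54. Without ESC JB6 replicate 2, 8 rose and 11 fell. Counts over all genes without these libraries are not given. Rps12 was not called without ESC JB6 replicate 1 (log2 fold change -0.22, edgeR adjusted p = 0.200). Replicate 1 had the highest sum of the mitochondrial ribosomal protein genes among the ESC libraries (9649 CPM, against 6194 to 7458) and the lowest mitochondrial share (15.4% of read bases, against 18.5% to 21.98%). Replicate 2 had the lowest sum of 9 pluripotency markers (3442 CPM, against 5873 to 7333) and the highest sum of the 10 mesendoderm and other lineage markers (1253, against 45.6 to 133). The part of these differences in the result was not tested. Without TMM factors, 29 rose and 4 fell, while the median of all genes tested also moved up by 0.31.

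From d12 to d21 nearly all members fell. Of 50 tested, 47 fell, none rose and 3 did not pass (edgeR), where 26.0% of all genes fell and 26.2% rose. The count of members that rose at an unadjusted p under 0.05 was also 0, since the 3 that did not pass were Rpl34, Rps25 and Rps15a, with adjusted p of 0.0651, 0.0796 and 0.178 by edgeR. The median log2 fold change was -1.05, against -0.03 over all genes. In 42 of the 48 members every d21 library was below every d12 library, a count without a share over all genes beside it.

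Rpl13a fell most. Its level at d12 was 2399 ± 386 CPM (SD, n = 4), between 1853 and 2759, and at d21 it was 913 ± 211 (SD, n = 4), between 650 and 1147. The ranges did not overlap, and the log2 fold change was -1.39 ± 0.19 (SE, edgeR adjusted p = 1.73e-06). Rpl23, Rpl15, Rps6 and Rps14 fell by 1.34, 1.31, 1.29 and 1.29 on the log2 scale. Rps6, the protein that S6 kinases phosphorylate downstream of mTOR, was at 1021, 966, 921 and 1774 CPM at d12 and at 581, 465, 409 and 430 at d21. The small subunit decoding-centre protein Rps23 was among the less abundant members, with 45.3 ± 13.8 CPM (SD, n = 4) at d12 and 25.6 ± 9.38 (SD, n = 4) at d21.

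**Figure D2:**
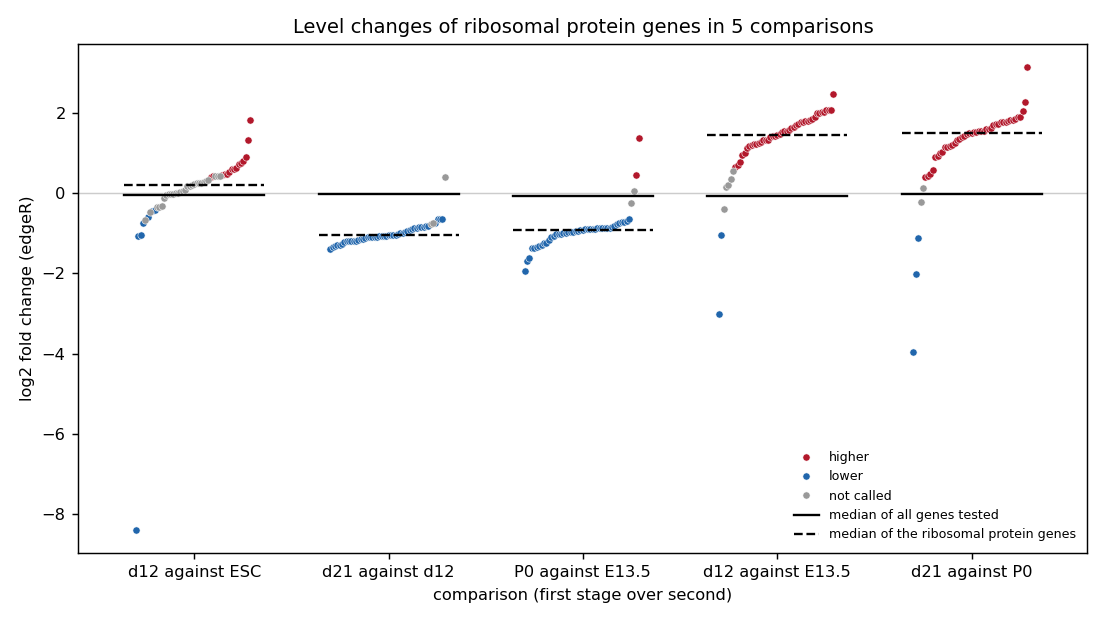
Log2 fold change (edgeR) of each tested member in 5 comparisons, sorted within each comparison, red for higher, blue for lower and grey for not called. Solid lines mark the median of all genes tested and dashed lines that of the members, which lies at -1.05 for d21 against d12 and at 1.48 for d21 against P0, while the members of d12 against ESC spread on both sides of 0.

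Most members also fell in tissue between E13.5 and P0. Of 48 tested, 44 fell, 2 rose and 2 did not pass (edgeR), where 39.8% of all genes fell and 36.1% rose. The median log2 fold change was -0.92, against -0.06 over all genes. In 44 of the 48 members every P0 library was below every E13.5 library, again without a share over all genes.

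Rps27l, a paralog of Rps27 that is known as a p53 target, fell most. At E13.5 its lowest, median and highest values were 95.7, 102 and 137 CPM, and at P0 they were 24.9, 27.3 and 32.7. The ranges were far apart, with a log2 fold change of -1.95 ± 0.13 (SE, edgeR adjusted p = 7.32e-13). Rpl22l1 was next, with 101, 107 and 137 CPM at E13.5 and 26.5, 36.3 and 45.7 at P0 (log2 fold change -1.69 ± 0.18 SE, edgeR adjusted p = 3.52e-09). Rps23, Rpl27 and Rps6 fell by 1.62, 1.38 and 1.37 on the log2 scale.

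Rpl22 and Rps15a were the members that rose in tissue. Rpl22 had 136, 151 and 165 CPM as lowest, median and highest at E13.5 and 194, 199 and 235 at P0. The ranges did not overlap, and the log2 fold change was 0.44 ± 0.13 (SE, edgeR adjusted p = 0.00297). The Rpl22 protein is known to repress the RNA of its paralog Rpl22l1. The pair was called in opposite directions only from E13.5 to P0, where Rpl22 rose and Rpl22l1 was among the 44 members that fell. At d21 against P0 the signs also differed. Rpl22l1 was higher there (log2 difference 1.14 ± 0.19 SE, edgeR adjusted p = 7.34e-06), while Rpl22 did not pass (-0.23 ± 0.14 SE, edgeR adjusted p = 0.146). A link between these changes was not tested. From d12 to d21 both fell, Rpl22 by 1.10 and Rpl22l1 by 0.75 on the log2 scale. From ESC to d12, where Rpl22 rose 1.81, Rpl22l1 did not pass (log2 fold change 0.42 ± 0.22 SE, edgeR adjusted p = 0.0837), with 91.7, 93.8, 137 and 70.6 CPM in ESC and 95.05, 95.7, 102 and 245 at d12. Only d12 JB6 replicate 2 was above the ESC range. Rps15a rose from 36.5 ± 4.35 CPM (SD, n = 6) at E13.5 to 94.4 ± 12.2 (SD, n = 7) at P0, a log2 fold change of 1.36 ± 0.15 (SE, edgeR adjusted p = 1.32e-08). Per covered difference it was at only 1.66 CPM at E13.5 and 4.32 at P0. Rpl5, which with Rpl11 binds Mdm2 when ribosome assembly is disturbed, had 54.1 ± 10.5 (SD, n = 6) and 45.1 ± 7.10 CPM (SD, n = 7) and did not pass. Rps3, at the entry of the messenger RNA channel, had 15.8 to 21.9 CPM at E13.5 and 17.04 to 22.4 at P0 and did not pass.

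**Figure D3:**
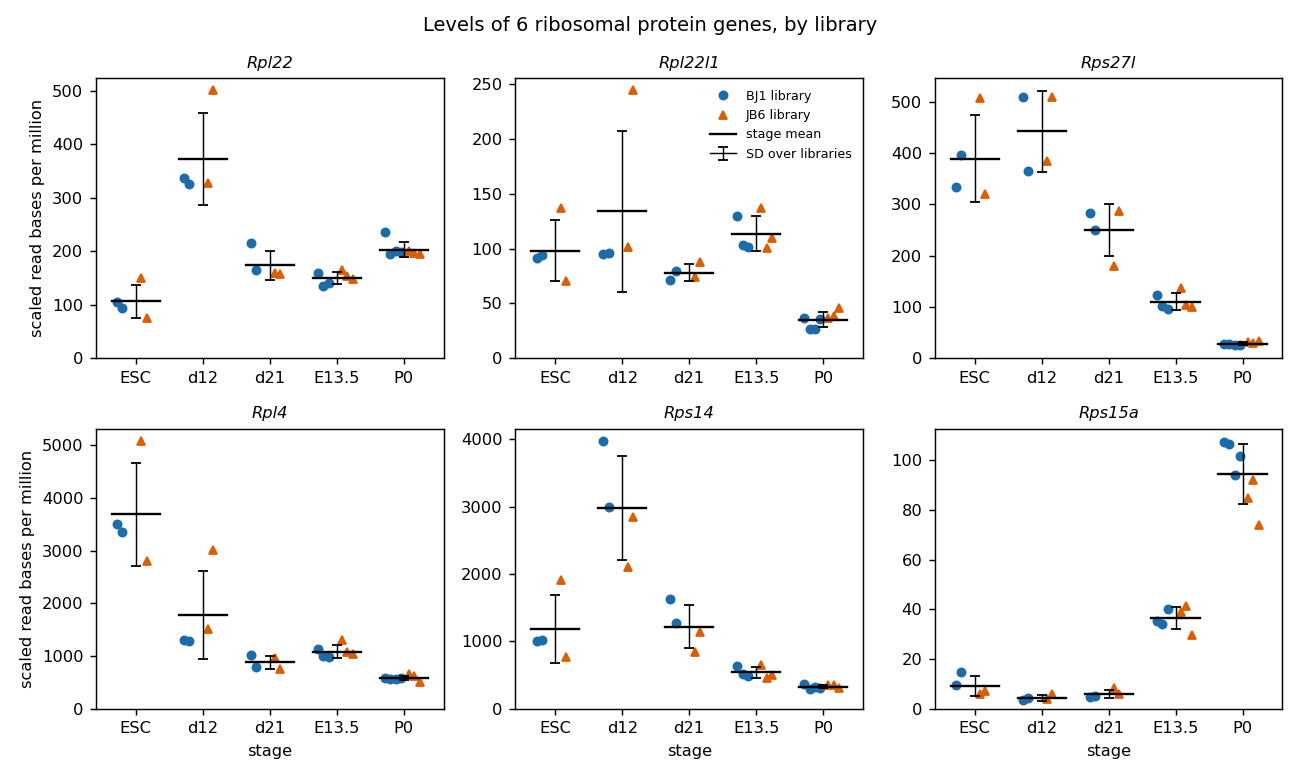
Scaled CPM of read bases (linear axis from 0) of Rpl22, Rpl22l1, Rps27l, Rpl4, Rps14 and Rps15a in each library, circles for BJ1 and triangles for JB6, with bars for the stage mean and SD. Rpl22 at P0 is above E13.5 while Rpl22l1 and Rps27l are below it, and Rps15a is at most 14.8 in culture and at least 29.8 in tissue.

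Cultured cells held more ribosomal protein RNA than tissue. At d12 against E13.5, 43 of 50 members were higher, 2 lower and 5 not called (edgeR), where 38.0% of all genes were higher and 41.5% lower. The median log2 difference was 1.43, against -0.08 over all genes. At d21 against P0, 43 of 48 were higher, 3 lower and 2 not called, where 40.3% of all genes were higher and 40.5% lower. The median was 1.48, against -0.02. Of the 48 members, 39 were higher at d12 and 42 at d21 with no overlap between the libraries. The same share over all genes was not worked out.

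Rps14 differed most between d12 and E13.5, with a log2 difference of 2.46 ± 0.20 (SE, edgeR adjusted p = 3.45e-11). Its E13.5 values had a lowest, median and highest of 460, 503 and 642 CPM, and the lowest d12 library held 2103. Rps16, Rpl12 at the base of the stalk, Rpl8 near the peptidyl transferase centre, and Rpl13 were higher at d12 by 2.07, 2.06, 2.05 and 2.03 on the log2 scale. At d21 against P0 Rps27l stood out, at 283, 249, 179 and 288 CPM at d21 and at most 32.7 at P0 (log2 difference 3.13 ± 0.14 SE, edgeR adjusted p = 3.85e-16). Rps21, the stalk protein Rplp1, Rpl28 and Rps14 were higher at d21 by 2.26, 2.05, 1.89 and 1.88.

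Rps15a and Rpl5 went the other way in both comparisons. Rps15a was lower at d12 than at E13.5 by a log2 difference of -3.00 ± 0.22 (SE, edgeR adjusted p = 4.70e-12), with 3.37, 4.51, 3.78 and 6.03 CPM at d12 and no E13.5 library under 29.8. At d21 against P0 its log2 difference was -3.95 ± 0.22 (SE, edgeR adjusted p = 1.10e-14). Rpl5 was lower by -1.05 at d12 against E13.5 and by -2.01 at d21 against P0, and Rps3 by -1.11 at d21 against P0. All 3 of these genes are among the 11 with few read bases per covered difference. Rps15a also covered fewer differences in culture than in tissue and showed no B6 read base in culture, as described below. Per covered difference it was at 0.381 CPM at d12 and 1.66 at E13.5, and at 0.439 at d21 and 4.32 at P0.

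Culture and tissue differed in other cell type markers in these same comparisons. Beside the lineage markers given above, the blood, vascular, meningeal and microglial list (12 of 17 measured) summed to 1933 to 2585 CPM at d21 and to 134 to 192 at P0, with Hbb-bh1 at 0 in both. At d12 it summed to 329 to 441, and at E13.5 to 49.0 to 381. Of the lineage markers, Foxa2 and Gata4 were at 0 in all E13.5 libraries, and Foxa2, Gata4, Gata6 and Afp in all P0 libraries. Their part in the level of the members was not tested. The 15 cell division genes, none of which was a member, summed to 2419 to 2713 CPM at d12, 3871 to 4959 at E13.5, 645 to 997 at d21 and 341 to 415 at P0. All 15 fell from d12 to d21 and from E13.5 to P0 (edgeR), as did most members. From ESC to d12, however, 12 of the 15 fell and none rose. At d12 against E13.5, 8 were lower and 3 higher, and at d21 against P0, 14 of the 15 were higher and none lower.

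Genes that build the ribosome did not follow its proteins at each step. The list of ribosome assembly and rRNA synthesis genes, chosen from general knowledge, had 35 of 40 measured. The shares of all genes that rose or fell, given above for each comparison, are the background for this list and the lists that follow. From ESC to d12 all 34 tested fell (edgeR), with a median log2 fold change of -2.24, against 15 rises and 7 falls among the 50 members. Dkc1, the pseudouridine synthase of box H/ACA particles, fell from 172 to 14.7 CPM (log2 fold change -3.55 ± 0.21 SE, edgeR adjusted p = 1.28e-13), and Utp20 and Tsr1, factors of small subunit assembly, fell by 3.09 and 2.94. The list's summed level was 10761 to 12797 CPM in ESC and 2546 to 2857 at d12, and ESC JB6 replicate 1, at 12191, was not its highest ESC library. From d12 to d21, 28 of 34 fell and 1 rose, with a median of -0.65. Npm1, a nucleolar histone chaperone, fell by 2.03. The riser was Ubtf, a factor of RNA polymerase I (log2 fold change 0.30 ± 0.12 SE, edgeR adjusted p = 0.0440). From E13.5 to P0, 27 of 33 fell, none rose, and the median was -0.89. In culture against tissue more of the list was lower than higher: at d12 against E13.5, 7 of 34 were higher and 18 lower, and at d21 against P0, 8 of 33 were higher and 19 lower.

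Translation factors and other transcripts known for a TOP tract formed a further list. Of 24 tested, 4 rose and 14 fell from ESC to d12, none rose and 23 fell from d12 to d21, and none rose and 22 fell from E13.5 to P0 (edgeR). In culture 15 were higher than in tissue at both pairs of stages, with 7 lower at d12 and 4 at d21. Fau, which encodes the small subunit protein eS30 under a symbol outside the rule, rose from 1668 to 3726 CPM between ESC and d12 (log2 fold change 1.16 ± 0.19 SE, edgeR adjusted p = 5.25e-06). Gnb2l1, the Rack1 protein on the small subunit, rose by 0.76 there and fell by 1.29 from d12 to d21. Eif4a1, the cap-binding complex helicase, fell by 1.47 from ESC to d12. Eef1a2, the elongation factor isoform of mature neurons, was not on this list and was taken alone. It rose from 2.96 ± 1.10 CPM (SD, n = 6) at E13.5 to 44.6 ± 6.04 (SD, n = 7) at P0. The log2 fold change of Eef1a2 was 3.90 ± 0.23 there (SE, edgeR adjusted p = 4.47e-14) and 2.85 from d12 to d21.

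The regulators of TOP translation and growth are a short list, of which 11 were tested. From ESC to d12, 1 rose and 8 fell, where 37.5% of all genes rose and 40.1% fell. From d12 to d21 none rose and 7 fell (26.2% and 26.0% of all genes), and from E13.5 to P0 4 rose and 6 fell (36.1% and 39.8%). At d12 against E13.5, 5 were higher and 3 lower, and at d21 against P0, 2 were higher and 5 lower. Eif4ebp1, the translation inhibitor that mTOR phosphorylates, was at 527.5 CPM at d12 and 24.98 at E13.5, a log2 difference of 4.41 ± 0.18 (SE, edgeR adjusted p = 1.79e-16). It was at 292 at d21 and 6.58 at P0, a log2 difference of 5.47. Mycn, a transcription factor of growth genes, fell by 1.54 from ESC to d12 and by 1.87 from d12 to d21. The proteins of the mitochondrial ribosome, which are made from nuclear genes, had 6 higher and 35 lower of 61 from ESC to d12, none higher and 43 lower of 61 from d12 to d21, and none higher and 50 lower of 60 from E13.5 to P0. They were higher in culture for 38 of 61 genes at d12 against E13.5 and for 47 of 61 at d21 against P0, with medians of 0.59 and 0.70.

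The B6 share of a gene is the percentage of its read bases that carry the B6 base. Summed over members it lay between 51.0% and 52.0% in every library, beside 50.6% to 52.1% for all autosomal genes. In ESC 40 of 50 passed the edgeR strain test, 22 with B6 higher and 18 with JF1 higher, where 44.6% of all autosomal genes passed, 2350 with B6 and 1660 with JF1 higher. At d12 it was 41 of 50 (23 and 18), where 35.9% of all genes passed (2122 and 1590). At d21 it was 38 of 49 (20 and 18), where 34.4% passed (2160 and 1639). At E13.5 it was 43 of 48 (27 and 16), where 45.9% passed (2810 and 1778), and at P0 42 of 48 (25 and 17), where 48.2% passed (3040 and 1972). Of the 48, 38 in ESC and at d12, and 40 at each of the other stages, had a mean B6 share within 10 points of 50%. Limma on log2 ratios called 12 with B6 higher and 5 with JF1 higher in ESC, 9 and 5 at d12, and 7 and 5 at d21. Limma counts over all genes are not given, for this test or the limma tests below.

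Rpl15, Rpl37a and Rps6 were read mainly from the B6 allele at every stage. Rpl15 was at 99.97%, 99.92%, 99.92% and 100% in the ESC libraries, and its stage means ran from 99.94% to 99.99%. All of this rests on 1 covered difference. Rpl37a, with 6 covered differences, had stage means from 93.1% to 95.6%. At E13.5 it was 93.1% ± 0.392 (SD, n = 6), a log2 ratio of B6 over JF1 of 3.77 ± 0.04 (SE, edgeR adjusted p = 8.17e-61). Rps6, with 8 covered differences, had stage means from 81.9% to 84.1%. Its values in ESC were 82.1%, 81.8%, 83.7% and 83.3%, and those at d21 were 83.2%, 82.6%, 82.5% and 82.9%. In ESC both JB6 values lay above both BJ1 values, and at d21 the crosses overlapped. Rpl23 had stage means from 59.8% to 64.5%. Rps25 was at 77.1% ± 9.63 (SD, n = 4) at d12 on 98 read bases, and at 50.2% ± 17.9 (SD, n = 4) at d21 on 63.

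Rps23 was read almost wholly from JF1, again from 1 covered difference. Its mean B6 share was 0.454% ± 0.322 (SD, n = 4) in ESC, 0.902% ± 0.313 (SD, n = 4) at d12 and 0.550% ± 0.694 (SD, n = 4) at d21, and it was 0.128% ± 0.314 (SD, n = 6) at E13.5 and 0.712% ± 1.24 (SD, n = 7) at P0. The stalk protein Rplp1 also leaned to JF1 at every stage, with means from 40.1% to 42.5% on 1 covered difference. Rps15 ran from 43.5% to 47.3% on 1 to 3, and Rps16 from 43.4% to 45.7% on 1. A share near 100% or 0% in both crosses goes with the base counted for a strain, whichever parent it came from. How far reads of pseudogene copies entered the 1 covered difference of Rpl15 or of Rps23 was not tested. Of the other members with exactly 1 covered difference, Rpl12, Rpl8, Rpl30, Rpl28 and Rpl35a had stage means from 46.3% to 58.7%. Rpl41 was under the minimum count, and its libraries ran from 0% to 100%.

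**Figure D4:**
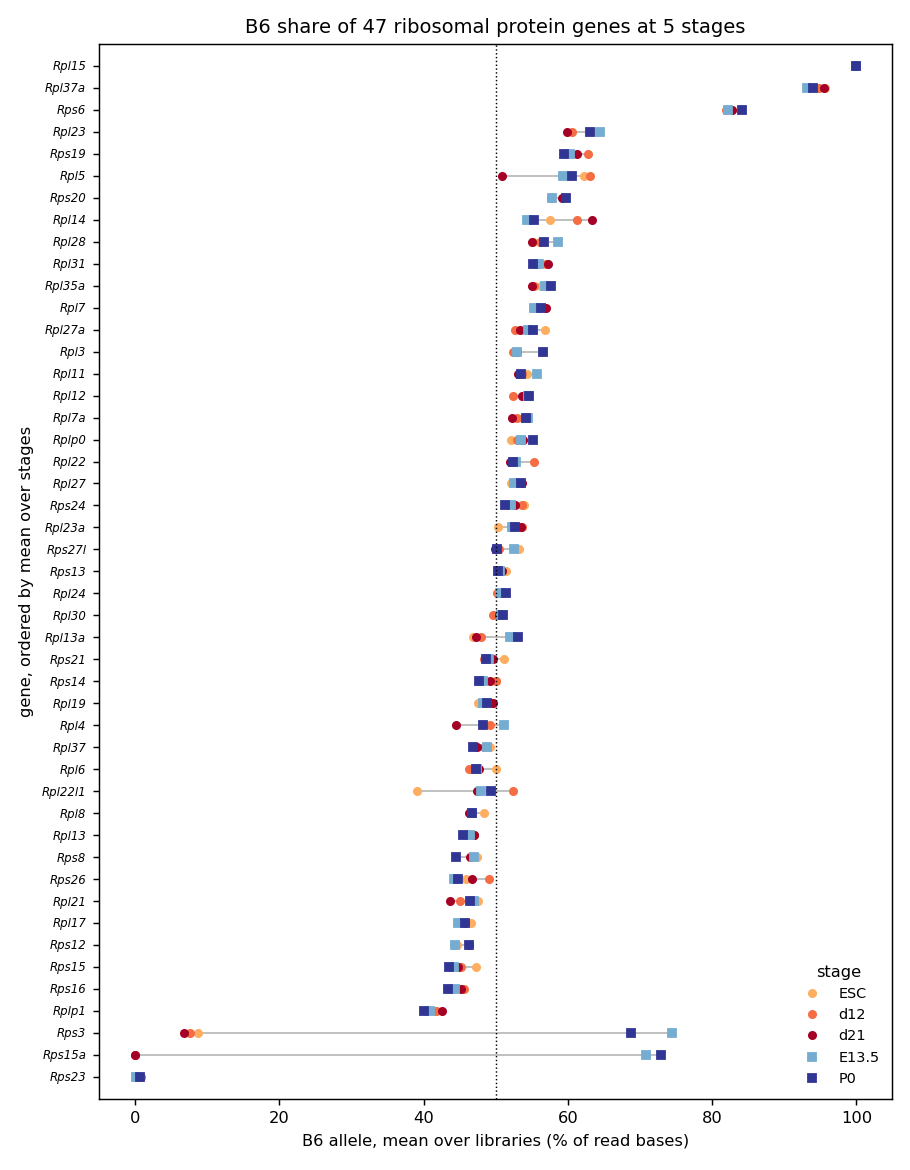
Mean B6 share (% of read bases) of the members at each stage (1 of the 48 is not drawn), circles for culture and squares for tissue, with members ordered by their mean over stages and a dotted line at 50%. Most members keep their points within a few percentage points of each other, while Rps15a and Rps3 have their culture points at most at 8.68% and their tissue points at least at 68.8%.

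The strain share moved little across stages in most members. The range of a member's 5 stage means had a median of 2.59 points, was under 5 points for 41 of 48 and over 10 for 4: Rps15a (73.0), Rps3 (67.7), Rpl22l1 (13.4) and Rpl5 (12.2). In the edgeR test of strain by stage, 32 of 48 members passed, where 45.4% of all genes did. Limma on log2 ratios called 12. The 6 with the smallest adjusted p were Rps15a, Rps3, Rpl14, Rpl13a, Rps26 and Rpl4.

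Rpl14 was at 57.5% ± 0.816 (SD, n = 4) in ESC, 61.2% ± 0.629 (SD, n = 4) at d12 and 63.3% ± 0.410 (SD, n = 4) at d21, against 54.3% ± 0.766 (SD, n = 6) at E13.5 and 55.3% ± 1.24 (SD, n = 7) at P0 (edgeR adjusted p = 1.08e-17). Rpl13a was under 50% in culture, at 46.8%, 48.01% and 47.3% by stage, and over it in tissue, at 51.9% and 53.1% (edgeR adjusted p = 4.87e-12). Rps26 was highest at d12, at 49.1%, and lowest at E13.5, at 44.2%. Rpl4 was lowest at d21, at 44.5% ± 1.25 (SD, n = 4), and highest at E13.5, at 51.1% ± 0.464 (SD, n = 6). Rpl22l1 leaned to JF1 only in ESC by the stage tests, at 39.3%, 35.8%, 40.7% and 40.5%, and its means were 47.4% to 52.5% at the other stages. Its strain by stage test passed (edgeR adjusted p = 1.15e-07). Rpl5, whose stage means ranged as widely, did not pass (edgeR adjusted p = 0.118), on 308 to 2177 read bases a stage.

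Rps15a and Rps3, small subunit genes on chromosome 7, changed side between culture and tissue. For Rps15a no B6 read base was seen among 177 in ESC, 117 at d12 and 164 at d21. If each read base were independent, those zeros would allow B6 shares of up to 1.69%, 2.56% and 1.83%, counting error only. A read that spans several differences is counted at each, so the real limits may be higher. At E13.5 its lowest, median and highest B6 shares were 62.8%, 70.6% and 80.2%, and at P0 they were 69.0%, 72.8% and 76.5%. The strain by stage test gave an edgeR adjusted p of 4.17e-25. Tissue libraries also covered more of its differences, 21 to 22, against 9 to 18 in culture. DESeq2 did not call the d12 strain difference of Rps15a (adjusted p = 0.0639). For Rps3 the culture libraries ran from 0% to 12.5% and the tissue libraries from 58.5% to 80.8% (edgeR adjusted p = 6.63e-22).

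Neighbouring genes differed between the 2 loci. Of the 5 measured genes on each side of Rps3 by RefSeq gene order (GRCm38.p6), 8 of 10 had a mean B6 share under 10% in culture, and none did in tissue. Pgm2l1 was at 0.163% ± 0.435 (SD, n = 12) in culture and 57.8% ± 2.69 (SD, n = 13) in tissue, while Pold3, between it and Rps3, was at 54.8% ± 5.92 (SD, n = 12) and 47.8% ± 3.91 (SD, n = 13). Around Rps15a only 1 of 10 was under 10% in culture, its next neighbour Tmc7, at 0.521% ± 1.804 (SD, n = 12) and 70.1% ± 7.90 (SD, n = 13). Rps13, another member 3 measured genes away, was at 51.1% ± 0.780 (SD, n = 12) in culture and 50.4% ± 1.05 (SD, n = 13) in tissue. The neighbours were looked up after the shares of Rps15a and Rps3 had been seen. According to the authors' deposited description, the transgenic B6 parent of the cell lines still carried CBA sequence, and strain differences that showed it were taken out of all samples, but only those with enough reads over the pooled culture libraries. The part of that background in these shares was not tested.

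**Figure D5:**
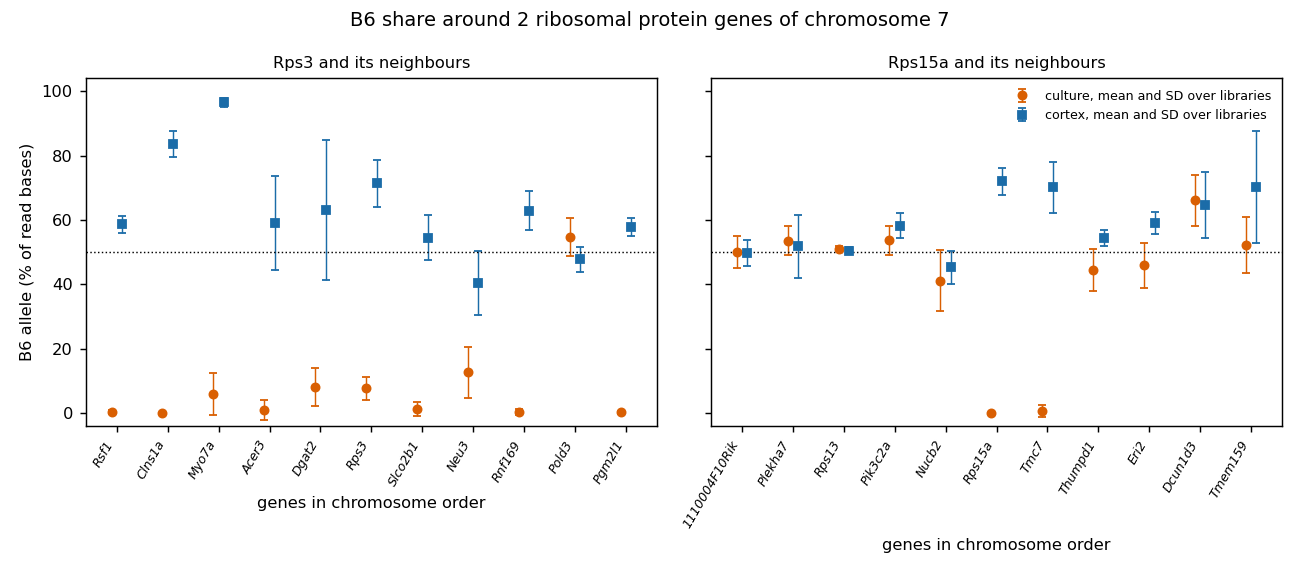
B6 share (% of read bases, mean and SD over libraries) of Rps3, Rps15a and the 5 measured genes on each side in chromosome order, orange circles for culture (12 libraries) and blue squares for tissue (13 libraries), dotted line at 50%. Around Rps3 most neighbours are under 10% in culture, and around Rps15a Tmc7 is the one that is.

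Calls by parent were few, among the members as among all genes. The edgeR test of the maternal against the paternal allele called none of 50 members in ESC, where 1.40% of all autosomal genes passed, 2 of 50 at d12 (1.78%), 1 of 49 at d21 (1.38%), none of 48 at E13.5 (0.490%) and none of 48 at P0 (0.548%). At an unadjusted p under 0.05 the edgeR counts of members were 5, 7, 5, 2 and 4 in the same order. Over all autosomal genes they were 690 of 8991, 804 of 10345, 737 of 11047, 593 of 9999 and 684 of 10402. Limma called no member at d12 or d21. Rps19, the gene most often mutated in Diamond-Blackfan anaemia, had a B6 share of 64.4% in BJ1 and 61.3% in JB6 at d12, a log2 ratio of maternal over paternal of 0.10 ± 0.02 (SE, edgeR adjusted p = 0.00135). Rpl6 had 44.8% and 47.8%, with the paternal allele higher by a log2 ratio of -0.09 ± 0.02 (SE, edgeR adjusted p = 0.00545). Rpl31 at d21 had 59.7% in BJ1 and 54.9% in JB6, with a log2 ratio of 0.14 ± 0.03 (SE, edgeR adjusted p = 0.00176). Each call was lost when either of 2 libraries was left out: d12 BJ1 replicate 1 or d12 JB6 replicate 2 for Rps19 (highest adjusted p 0.407 by edgeR) and Rpl6 (0.655), and d21 BJ1 replicate 1 or d21 JB6 replicate 1 for Rpl31 (0.301). In culture each cross was 1 cell line, so the parent of an allele and the line cannot be told apart there. Over the 48 members, the median absolute difference between the crosses' mean B6 shares was 0.669 points in ESC, 0.527 at d12, 0.791 at d21, 0.490 at E13.5 and 0.969 at P0.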

How the data were processed

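RNA was sequenced from stranded poly(A) libraries of 25 hybrid samples, and E14 samples were not analysed here. The deposited counts are the authors' raw numbers of sense read bases per gene and allele at B6-JF1 strain differences, and per the authors' deposited description they were made with mpileup and summed per gene, beside the number of differences covered. Novoalign, CASAVA 1.8.2, HTSeq, edgeR and the mm9 build are named in the submitters' processing notes. The treatment of reads with several matches is not given in the sources used here. All genes were tested with edgeR 4.0.16 (quasi-likelihood, Benjamini-Hochberg adjusted p of 0.05): expression with TMM scaling in 1 fit over the 5 stages with cross as a covariate, and alleles per stage with library, strain and parent. Genes needed a mean of at least 20 read bases. DESeq2 1.42.0 and limma 3.58.1 (pseudocount 0.5) were alternatives. The procedures were tested on simulated data.

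Members and lists were chosen with earlier results of these data known. Named genes were up to 5 called members per direction and comparison, paralogs with their namesakes, up to 4 per stage and strain direction, the 6 smallest adjusted p by stage, every member called by parent, the 3 highest and lowest per covered difference, and up to 3 per direction of other lists. Further genes were named after their values were seen. A few of the genes so chosen are not reported here. Replicate numbers did not pair the libraries: the correlations of same-numbered libraries' deviations lay between -0.33 and 0.14. Depth limits the allele shares of the members with few reads, and floors cover counting error only.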

Additional observations from a re-analysis of the deposited data

Results flagged for a closer look

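In 8 of 129 sets of 4 to 10 libraries checked, 1 library stood apart from the others, and chance marks about 1 set in 20. Rpl7 was at 2251 CPM in ESC JB6 replicate 1, against 1446 to 1578 in the other ESC libraries. In d12 JB6 replicate 2, Rpl22 was at 501.5 (others 325 to 336), Rpl4 at 3020 (others 1291 to 1509) and Rps6 at 1774 (others 921 to 1021). Rpl22 was at 235 in P0 BJ1 replicate 1 (others 194 to 200.1), and Rpl27 at 88.7 in P0 JB6 replicate 2 (others 69.8 to 76.7). The B6 share of Rps3 was 0.0% in d21 JB6 replicate 1, against 8.33% to 9.38%. That of Rps23 was 0.769% in E13.5 JB6 replicate 2, where the other 5 libraries were at 0.

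The B6 share differed between stages by edgeR's quasi-likelihood test in the members with the smallest adjusted p: Rps15a (4.17e-25, stage means 0.0% to 73.0%), Rps3 (6.63e-22, 6.73% to 74.4%), Rpl14 (1.08e-17, 54.3% to 63.3%), Rpl13a (4.87e-12, 46.8% to 53.1%), Rps26 (9.41e-11, 44.2% to 49.1%) and Rpl4 (1.53e-10, 44.5% to 51.1%).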

How the results depend on the processing

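From ESC to d12, the count of members that rose (15) became 29 without TMM factors, 23 without the minimum count, 9 with only those stages fitted, and 8 to 31 when single libraries were left out. The count that fell (7) became 4 without TMM factors, 4 with only those stages, and 5 to 11. The median (0.20) became 0.51 without TMM factors and 0.087 to 0.54 when single libraries were left out. Without TMM factors the median of all genes moved by 0.31 there, and 4795 rose and 3287 fell, against 3927 and 4201. Without the minimum count that median moved by 0.22, and 5322 of 13592 genes rose and 4374 fell. Counts over all genes are not given for the fit of only those stages, the left-out libraries or the crossed replicates. Limma on log2 ratios called 12 with B6 and 5 with JF1 higher in ESC, 9 and 5 at d12, 7 and 5 at d21, no parental difference at d12 or d21, and 12 members by stage. Parental calls ran from 0 to 1 in ESC, 0 to 2 at d12 and 0 to 1 at d21 when single libraries were left out. The cause was not tested. Limma by stage with the replicate block called 9 members. In the expression tests the block changed no count by over 1.5 times. Crossing the replicate numbers, chosen after seeing the data, gave 19 higher and 6 lower from ESC to d12. Dividing all counts by 3, for reads counted at several differences, moved no count by over 1.5 times. Rps12 was lost from ESC to d12 without TMM factors (adjusted p = 0.123) and with only those stages (adjusted p = 0.0953), both by edgeR. No median and no named gene's change turned sign under the alternatives run. The balance of calls from ESC to d12 turned to 8 higher and 11 lower without ESC JB6 replicate 2, and was 10 and 10 without d12 JB6 replicate 2.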
